A study of Mus musculus with 10 samples.

Results

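The transcripts described here are those of 10 enteroendocrine genes of the mouse ileum: the hormone genes Nts, Sct, Pyy, Gcg, Cck, Ghrl and Tac1, the granin genes Chga and Chgb, and Tph1 of serotonin synthesis. They were chosen by name as the rows of the deposited raw count table that carry these symbols; the rule uses no measured value. All 10 have a row among the 13932 genes of the table, and all 10 passed the filter on low counts that left 13286 genes for testing. The study sequenced total RNA from sorted ileal epithelial cells of 10 mice, 1 library per mouse. The dIEC group is 5 mice labelled H2-Ab1 fl/fl; Villin:Cre+, and the WT group is 5 mice labelled H2-Ab1 fl/fl; Villin:Cre-, each with 3 males and 2 females. The series text gives Cre- for both genotypes, and the groups here follow the sample labels. Each library came from 400000 live cells that were CD45- and EpCAM+, and was made with a stranded kit after ribosomal RNA was removed.

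All mice carry the floxed H2-Ab1 gene, which encodes the beta chain of an MHC class II molecule, and the dIEC mice alone carry Cre, so deletion of the gene and presence of Cre cannot be told apart. The villin promoter that drives Cre is active across the intestinal epithelium, not in enteroendocrine cells alone. No age is given for the mice in the labels. H2-Ab1 was at 1.98, 3.10, 0.767, 1.84 and 3.0 CPM (counts scaled by the TMM-adjusted library total) in dIEC libraries 1, 3, 5, 7 and 9, against 367, 246, 235, 63.1 and 130 CPM in WT libraries 2, 4, 6, 8 and 10 (log2 fold change -6.40, SE 0.51; edgeR's quasi-likelihood test with Benjamini-Hochberg adjustment, adjusted p = 0.000735). The groups did not overlap, as the labels call for. Libraries held 9174101 to 13484363 counts. Libraries of 1 group differed from each other far beyond sampling noise, and the summed level of 20 proliferation genes ran from 235 CPM in dIEC 7 to 1471 CPM in dIEC 9. Of genes that mark other cells, 4 of 16 enteric neuron genes, 2 of 6 enteric glia genes, 3 of 12 leukocyte genes, 1 of 8 mast cell genes and 3 of 11 stromal genes have a row, and in no library did the 3 leukocyte genes together exceed 3.34 CPM.

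Enteroendocrine cells are rare hormone-secreting cells scattered through the crypts and villi of the gut epithelium. Each makes one or a few peptides, which are processed by prohormone convertases, stored with granins in dense-core granules and released when the cell senses nutrients or other signals. In the mouse ileum, L cells make the products of Gcg, Pyy and Nts, and the hormone in largest supply changes as a cell leaves the crypt: Gcg is high in crypt cells, and Nts and Pyy are high in villus cells. Enterochromaffin cells, which make serotonin with the rate-limiting enzyme Tph1, express Tac1 in the crypt and Sct toward the villus.

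Since levels of different genes can be compared only per length, the order of the genes was read as CPM per kb of merged exons. Nts, the precursor of neurotensin, came first, with a mean of 120 ± 33.9 CPM per kb (SD, n = 10), and Sct, the precursor of secretin, followed with 106 ± 24.6 CPM per kb. Nts was above Sct in 7 of 10 libraries and the means differed by less than either SD, so these neighbours were not separated by their spread. Pyy, the precursor of peptide YY, had 48.5 ± 10.8 CPM per kb and lay below Sct in 10 of 10 libraries. Its level put it at rank 1006 of the 13728 genes with a length, where Nts was at rank 370 and Sct at rank 421.

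The granin gene Chgb, which encodes chromogranin B, had 28.6 ± 11.1 CPM per kb, and Gcg, which encodes proglucagon, the source of GLP-1 and GLP-2, had 25.5 ± 11.4 CPM per kb. Chgb was above Gcg in 7 of 10 libraries, and the pair changed places when the longest transcript was used as the length in place of merged exons. Chga, which encodes chromogranin A, had 16.2 ± 4.39 CPM per kb and was above the next gene, Cck, in 7 of 10 libraries. Cck, the precursor of cholecystokinin, and Ghrl, the precursor of ghrelin, were level, with 11.3 ± 4.94 and 11.2 ± 4.18 CPM per kb. With the longest transcript as the length they were at 18.4 ± 8.06 and 13.6 ± 5.06 CPM per kb, and Cck was above Ghrl in 9 of 10 libraries.

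The last pair stood clearly apart. Ghrl was above Tac1 in 10 of 10 libraries, by 9.80-fold in the means. Tac1, the precursor of substance P and neurokinin A, had 1.15 ± 0.69 CPM per kb. Tph1 had 0.939 ± 0.299 CPM per kb, and Tac1 was above it in 5 of 10 libraries, so their order was not settled. Within dIEC and within WT the order of the means was the same, apart from Cck and Ghrl, which changed places in dIEC.

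**Figure D1:**
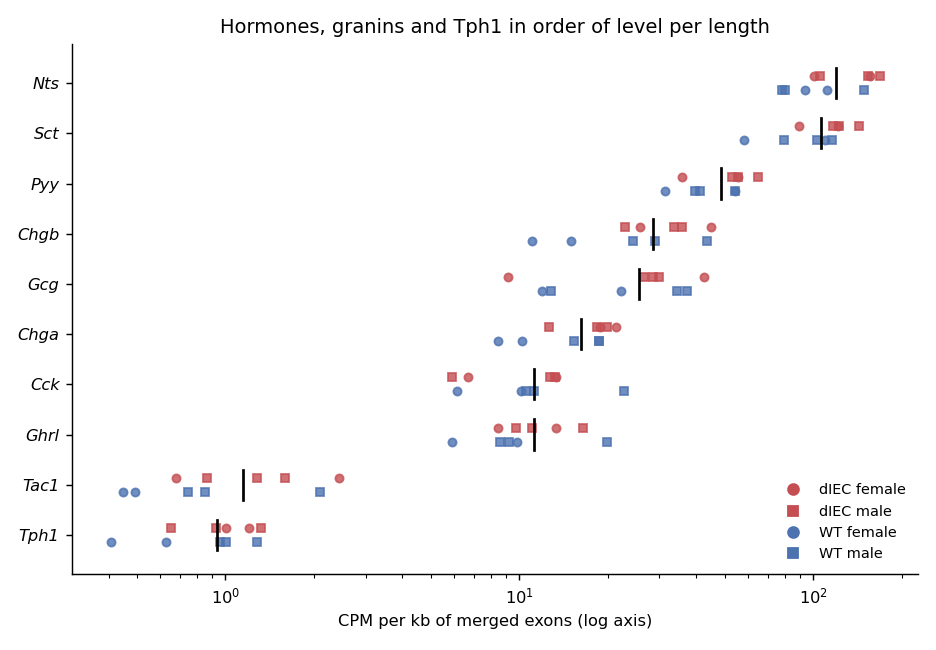
Level of each gene in each library as CPM per kb of merged exons (log axis), dIEC above WT in each row, circles for females and squares for males; the black bar is the mean of 10 libraries. Nts and Sct lead at 120 and 106 CPM per kb with overlapping points, and Tac1 and Tph1 lie near 1 CPM per kb, below all other genes in every library.

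Among the 7 hormone genes chosen, Nts and Sct made up most of the summed level per length; other hormone genes, such as Gip and Sst, are not in this sum. Of the summed CPM per kb of the 7 hormone genes, Nts took 40.8%, 31.9%, 38.8%, 40.2% and 38.6% in dIEC libraries 1, 3, 5, 7 and 9, against 28.0%, 43.8%, 27.4%, 43.1% and 36.2% in WT libraries 2, 4, 6, 8 and 10. The WT libraries spanned a wider range than the dIEC ones and enclosed it. Sct took 26.6% to 35.7% over all libraries, and Nts and Sct together took 69.6% ± 6.30 (SD, n = 10). Pyy was the third contributor at 15.1% ± 1.97. Gcg was the most variable of the 4 leading hormones, at 3.65% to 10.5% of the sum in dIEC and 3.76% to 13.4% in WT. Cck and Ghrl took 3.56% ± 1.73 and 3.50% ± 1.32, and in WT 2 they reached 8.15% and 7.11%, the highest share of each. Without length, the 10 genes together held 369 to 601 CPM in dIEC and 284 to 470 CPM in WT, and between 0.0291% and 0.0729% of the counts of a library.

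**Figure D2:**
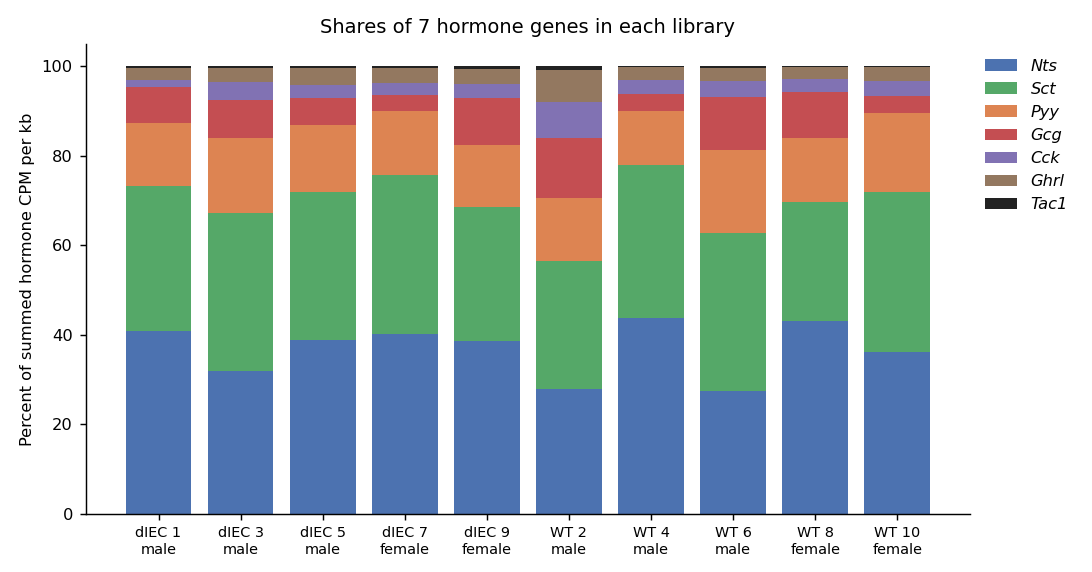
Share of each of the 7 hormone genes in their summed CPM per kb in each library, in percent, with the 5 dIEC libraries left of the 5 WT libraries. Nts and Sct fill 56.5% to 77.9% of every bar, Gcg varies from 3.65% to 13.4%, and WT 2 has the largest Cck and Ghrl segments.

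Between genotypes, none of the 10 genes passed the threshold. In edgeR's quasi-likelihood test, with sex in the model and an adjusted p under 0.05 required, 0 of the 10 were called, where 2 of 13286 genes (0.0151%) were called in all, H2-Ab1 among them. At an unadjusted p under 0.05 the count was 0 in edgeR and 0 in DESeq2, and limma voom with sample weights put Nts and Sct below that p (adjusted p = 0.231 and 0.266). DESeq2 and limma voom also called 0 of the 10. Every gene had an adjusted p of 0.9999 in edgeR, and in every gene the dIEC and WT libraries overlapped. In bulk RNA, fewer cells of a type and less RNA per cell cannot be told apart, and this holds for every level given here.

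Most of the fitted differences had 1 sign. The log2 fold change, dIEC over WT, was positive for 9 of the 10 genes with a median of 0.34, where 52.6% of all tested genes were positive with a median of 0.014. limma voom with sample weights gave 6 positive and a median of 0.051, and without dIEC 9 the edgeR median was 0.18 with 8 positive. Most pairs of these genes had a positive r across libraries, as given below, so the signs cannot be taken as independent of each other.

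Neurotensin, which slows gut motility and promotes fat absorption, had the highest mean CPM of the 7 hormone genes. Nts (mm10, chromosome 10, 102481756 to 102490486, minus strand) was at 191, 132, 211, 126 and 195 CPM in dIEC libraries 1, 3, 5, 7 and 9, against 97.5, 186, 99.9, 117 and 140 CPM in WT libraries 2, 4, 6, 8 and 10. The 3 highest dIEC libraries exceeded every WT library, and both WT 4 and WT 10 exceeded the lowest pair of dIEC libraries. The means were 171 ± 39.3 CPM in dIEC and 128 ± 36.5 CPM in WT (SD, n = 5 each; log2 fold change 0.42, SE 0.23). Nts gave a positive value in males alone (0.48, SE 0.26) and in females alone (0.32, SE 0.41).

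Secretin stimulates bicarbonate secretion by the pancreas and bile ducts. Sct (chromosome 7, 141278330 to 141279133, minus strand) was at 78.7, 75.1, 92.7, 57.7 and 78.5 CPM in dIEC libraries 1, 3, 5, 7 and 9, against 51.3, 74.9, 66.6, 37.4 and 71.0 CPM in WT libraries 2, 4, 6, 8 and 10. The dIEC libraries other than dIEC 7 lay above all 5 WT libraries, dIEC 3 by a margin far smaller than the spread. Sct had means of 76.5 ± 12.5 CPM in dIEC and 60.2 ± 15.6 CPM in WT (log2 fold change 0.35, SE 0.19), and the values for males (0.35, SE 0.15) and females (0.33, SE 0.43) were alike in size.

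Peptide YY acts on the brain and gut to reduce appetite and slow transit. Pyy (chromosome 11, 102106676 to 102107832, minus strand) was at 33.4, 35.0, 40.9, 22.6 and 35.1 CPM in dIEC libraries 1, 3, 5, 7 and 9, against 25.0, 26.0, 34.1, 19.8 and 34.3 CPM in WT libraries 2, 4, 6, 8 and 10. The groups overlapped over most of their range, and each had its lowest value in a female. The log2 fold change was 0.26 (SE 0.19). Pyy and Sct followed each other across libraries (Pearson r = 0.87, permutation p = 0.00073, adjusted over 45 pairs of genes p = 0.0125; Spearman rho = 0.81, adjusted p = 0.0547; r = 0.75 without WT 8 and dIEC 7; n = 10).

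Proglucagon is cut in L cells to GLP-1, which augments insulin release, and GLP-2, which promotes growth of the mucosa. Gcg (chromosome 2, 62474530 to 62483650, minus strand) was at 44.7, 42.5, 39.6, 13.7 and 63.6 CPM in dIEC libraries 1, 3, 5, 7 and 9, against 55.8, 19.1, 51.2, 33.2 and 17.8 CPM in WT libraries 2, 4, 6, 8 and 10. The lowest and the highest of the 10 libraries were the dIEC females 7 and 9. The log2 fold change was 0.24 (SE 0.41), and it was -0.25 (SE 0.33) without dIEC 9.

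Cholecystokinin triggers gallbladder contraction and pancreatic enzyme release, and ghrelin stimulates appetite; both are typical of the upper gut. Cck (chromosome 9, 121489824 to 121495694, minus strand) was at 7.73, 16.6, 17.2, 8.75 and 17.4 CPM in dIEC libraries 1, 3, 5, 7 and 9, against 29.7, 14.7, 13.8, 8.04 and 13.2 CPM in WT libraries 2, 4, 6, 8 and 10. It was the 1 gene with a negative log2 fold change (-0.17, SE 0.34), which became 0.12 (SE 0.30) without WT 2, the highest library. Ghrl (chromosome 6, 113716119 to 113719880, minus strand) was at 10.5, 11.9, 17.7, 9.10 and 14.4 CPM in dIEC and at 21.4, 9.99, 9.31, 6.36 and 10.6 CPM in WT, in the same order of libraries (log2 fold change 0.18, SE 0.30, or 0.015 without dIEC 9 and 0.48 without WT 2). WT 2 was the highest library for both genes. The annotation places 2 genes on the opposite strand over part of Ghrl, and the labels do not say whether the authors' counting used strand.

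The granins help to form the dense-core granules and are the usual markers of the whole lineage. Chga (chromosome 12, 102554969 to 102565028, plus strand) was at 54.7, 34.7, 50.6, 51.7 and 58.9 CPM in dIEC libraries 1, 3, 5, 7 and 9, against 51.5, 51.4, 42.2, 28.0 and 23.4 CPM in WT libraries 2, 4, 6, 8 and 10. Chgb (chromosome 2, 132781278 to 132795079, plus strand) was at 92.1, 63.0, 98.4, 70.7 and 123 CPM in dIEC, against 119, 79.7, 66.9, 30.3 and 41.0 CPM in WT. For both granins the WT females 8 and 10 held the lowest 2 values of all libraries, while the males of the genotypes overlapped. The log2 fold changes were 0.41 (SE 0.23) for Chga and 0.53 (SE 0.32) for Chgb in edgeR, and 0.045 and 0.058 in limma voom with sample weights. Without WT 10 the edgeR value of Chga was 0.25, and without dIEC 9 that of Chgb was 0.27.

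Tac1 and Tph1 are made mainly by enterochromaffin cells among epithelial cells. Tac1 (chromosome 6, 7554879 to 7565834, plus strand) was at 5.43, 2.93, 4.35, 2.30 and 8.25 CPM in dIEC libraries 1, 3, 5, 7 and 9, against 7.11, 2.53, 2.89, 1.67 and 1.53 CPM in WT libraries 2, 4, 6, 8 and 10, from 17 to 135 counts a library. Tph1 (chromosome 7, 46644641 to 46672537, minus strand) was at 5.74, 4.02, 8.18, 6.22 and 7.4 CPM in dIEC, against 6.20, 5.90, 7.90, 2.51 and 3.86 CPM in WT, from 30 to 121 counts. For both genes the WT females had the lowest 2 values. Enteric neurons also make Tac1. Of 16 neuron markers 12 have no row. The 4 others summed to 11.1 to 25.4 CPM in dIEC and 6.11 to 22.9 CPM in WT, most of it from Ret. The part of neurons in the Tac1 values was not tested. The log2 fold changes were 0.67 (SE 0.49) for Tac1 and 0.33 (SE 0.31) for Tph1. Leaving out 1 library gave 0.14 (without dIEC 9) to 1.13 (without WT 2) for Tac1 and 0.13 (without WT 8) to 0.53 (without dIEC 3) for Tph1.

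**Figure D3:**
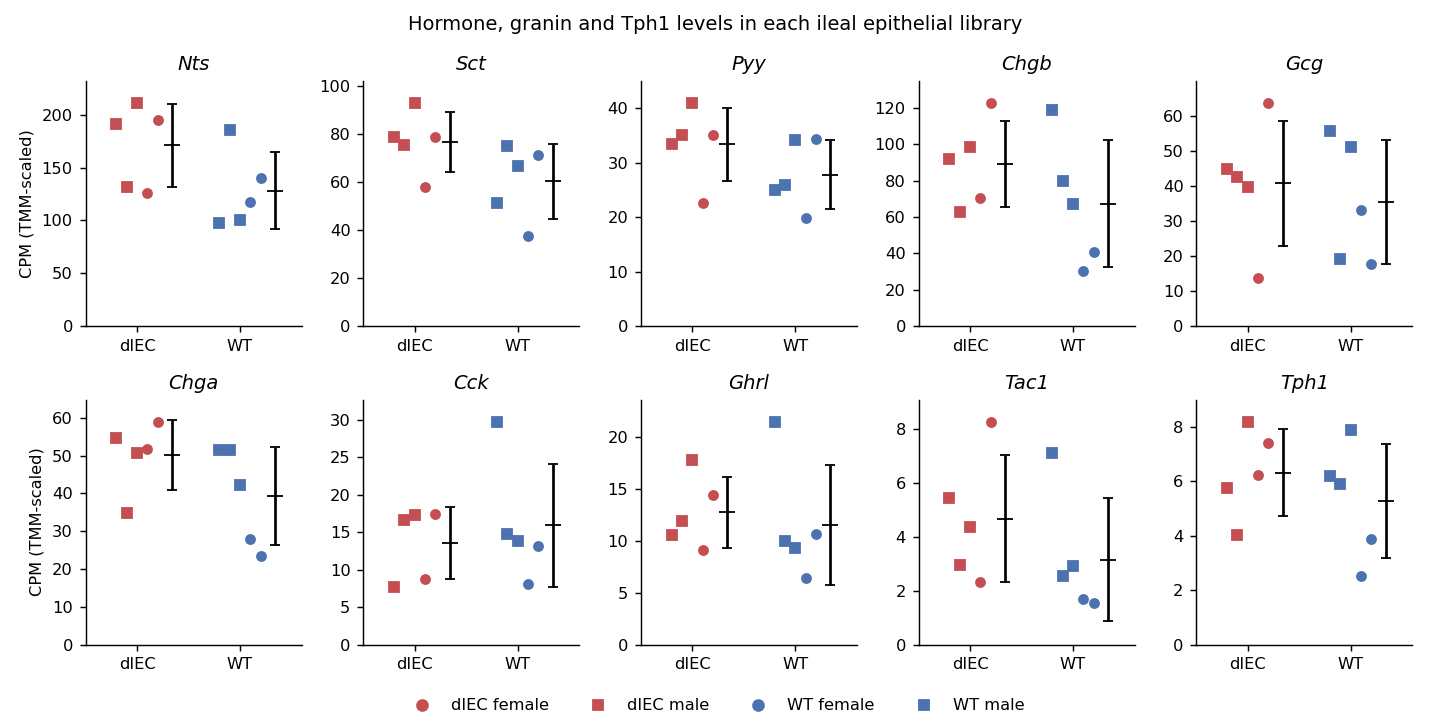
CPM of each gene in each library, dIEC left of WT, circles for females and squares for males; the bar beside each group is the mean with its SD (n = 5). Every pair of groups overlaps, and for Chga, Chgb, Tac1 and Tph1 the WT females are the lowest 2 points, at 28.0 and 23.4 CPM for Chga.

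The genotype difference was then set out by sex. Within males the median log2 fold change of the 10 genes was -0.028 with 3 positive (Nts, Sct and Pyy, at 0.48, 0.35 and 0.35), and within females it was 0.54 with 10 positive. The females' values were largest for Tac1 (1.73, SE 0.79), Chgb (1.44, SE 0.42), Chga (1.11, SE 0.33) and Tph1 (1.1, SE 0.56). In males these genes were at -0.016, -0.079, -0.055 and -0.17. With 2 females a genotype, the female values rest on 4 libraries.

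The difference between the sexes in the genotype effect was tested as an interaction term. In edgeR's quasi-likelihood test 0 of the 10 genes were called, with 1 of 13286 genes (0.00753%) called in all, and each adjusted p was 0.9999. At an unadjusted p under 0.05 the count was 3 in edgeR, 3 in DESeq2 and 0 in limma voom. Those in edgeR were Chga (interaction value 1.16 on the log2 scale, SE 0.31), Chgb (1.51, SE 0.47) and Tph1 (1.26, SE 0.51). They ranked 30, 63 and 211 by p among all tested genes. Nts and Sct had interaction values of -0.16 (SE 0.48) and -0.025 (SE 0.41). Among the 10 genes 7 were positive, with a median of 0.70, where 54.5% of all tested genes were positive. Marker lists of other cells differed in sign. Positive values were found for 20 of 20 proliferation genes (median 0.93) and 13 of 13 crypt stem genes (1.05). The same held for 12 of 12 goblet cell genes (1.02) and 11 of 12 Paneth cell genes (0.88). Enterocyte genes were negative in 10 of 14 (median -0.24) and tuft cell genes in 9 of 10 (-0.44). edgeR called 0 genes in each list. The part of these lists in the interaction values of the 10 genes was not tested. No gene of the 10 was called without any 1 library.

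**Figure D4:**
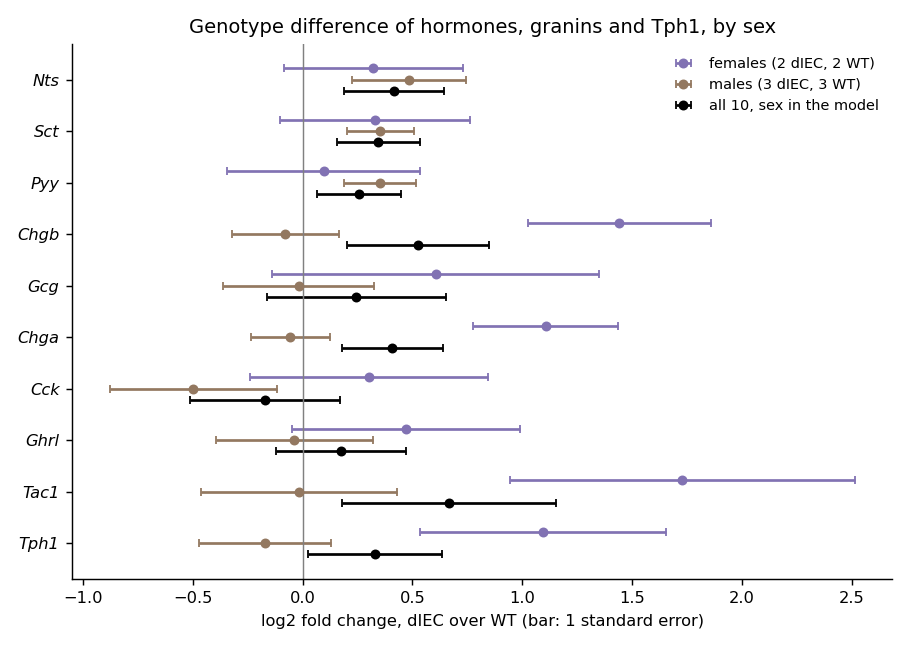
log2 fold change of each gene, dIEC over WT, in females (2 dIEC, 2 WT), in males (3 dIEC, 3 WT) and in all 10 libraries with sex in the model; bars are 1 standard error. Nts, Sct and Pyy have positive values in both sexes, while Chga, Chgb, Tac1 and Tph1 lie near 0 in males and between 1.1 and 1.73 in females.

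Between the sexes, all 10 genes had a negative log2 fold change, females over males, with a median of -0.41, where 58.3% of all tested genes were positive with a median of 0.041. edgeR's quasi-likelihood test called 0 of the 10 and 5 of 13286 genes (0.0376%) in all. The unadjusted p was under 0.05 for 0 genes in edgeR, 0 in DESeq2 and 1 in limma voom, Gcg. The limma voom value of Gcg was -1.20 (SE 0.32, adjusted p = 0.190), against -0.41 (SE 0.42) in edgeR. The edgeR values ran from -0.07 (SE 0.23) for Nts to -0.51 (SE 0.33) for Chgb. Within dIEC the median was -0.12 and within WT it was -0.80. The difference between these genotype values is the interaction tested above. Sex values were also negative for 12 of 12 goblet, 11 of 12 Paneth, 18 of 20 proliferation and 12 of 13 crypt stem genes. Enterocyte genes went the other way, positive in 11 of 14 (median 0.21), as did tuft cell genes, in 10 of 10 (0.54). edgeR called 0 genes in each list. The groups overlapped: goblet cell genes were at 5043 to 16390 summed CPM in females and 12780 to 48216 in males, and Paneth cell genes at 268 to 1311 in females and 711 to 1915 in males. Their part in the values of the 10 genes was not tested.

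Across the 10 libraries 43 of 45 pairs of these genes had a positive r in log2 CPM, with a median of 0.46. Without the 2 libraries farthest from the median in 1 gene of each pair, 36 pairs kept their sign, and the median r was 0.39. After adjustment over the 45 pairs, 5 Pearson correlations had a permutation p under 0.05. The granin pair Chga and Chgb had r = 0.90 (adjusted p = 0.0125; Spearman rho = 0.83, adjusted p = 0.0539) and kept r = 0.75 without WT 8 and WT 10. Chgb and Tac1 had r = 0.90 (adjusted p = 0.0125; rho = 0.87, adjusted p = 0.0429), the 1 pair past the threshold by both measures, with r = 0.91 without the same libraries. Cck and Ghrl had r = 0.84 (adjusted p = 0.0272; rho = 0.81, adjusted p = 0.0547), and r = 0.85 without WT 2 and dIEC 1. Chgb and Tph1, at r = 0.83 (adjusted p = 0.0272; rho = 0.66, adjusted p = 0.182), fell to 0.42 without WT 8 and WT 10, and so rested on those libraries. The Pyy and Sct pair is given above. Within the 6 males the r of these 5 pairs was 0.79, 0.87, 0.75, 0.35 and 0.75, in the order granin pair, Chgb and Tac1, Cck and Ghrl, Chgb and Tph1, Pyy and Sct.

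The sequence before the RefSeq start sites of the granin genes is shown because both held a cAMP response element motif, TGACGTNA. CREB family factors are known to bind at this motif. All 10 genes matched a RefSeq window of 250 bases before a start site (GRCm38.p6), and Ghrl, Pyy and Tph1 matched further windows. The motif was found on either strand in 2 of the 10 genes, Chga and Chgb. It occurs in 2.52% of 32851 such windows, a share of windows and so no direct background for a count of genes. The stretches below are on the plus strand, with the motif in capitals. The Chga stretch is chr12:102554886-102554915 and the Chgb stretch is chr2:132781559-132781588.
Chga: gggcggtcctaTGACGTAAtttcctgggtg
Chgb: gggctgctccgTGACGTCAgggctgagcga
The motif began 44 bases before the RefSeq start site in Chga and 72 bases before it in Chgb. The Chgb window, chr2:132781392-132781641, and its stretch lie inside the gene span given above, which starts upstream at 132781278 in GENCODE. A match of letters is a description and shows no binding.

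The genes were also compared with the summed level of 12 marker lists, 120 relations in all. Gcg had the largest r in size of all 120, with the proliferation genes, followed by those with the crypt stem cell and enterocyte genes. Libraries with more transcript of the 20 proliferation genes had more Gcg: the sum was 772, 834, 619, 235 and 1471 CPM in dIEC libraries 1, 3, 5, 7 and 9, against 1082, 381, 1029, 710 and 318 CPM in WT libraries 2, 4, 6, 8 and 10. The order of the libraries by this sum is nearly that by Gcg given above, with dIEC 7 lowest and dIEC 9 highest in both. Pearson's r was 0.98 and Spearman's rho 0.98 (n = 10; permutation p = 1e-05 and 2e-05, the first being the smallest that 100000 permutations can give; adjusted over 120 relations p = 0.0006 and 0.0008). It was 0.96 without WT 10 and dIEC 7, and 0.97 within the 6 males (exact permutation p = 0.00278). Gcg was likewise related to 13 crypt stem cell genes (r = 0.94, rho = 0.99, adjusted p = 0.0006 and 0.0008; r = 0.89 without WT 10 and dIEC 7) and, with a negative sign, to 14 enterocyte genes (r = -0.92, rho = -0.96, adjusted p = 0.0012 and 0.0008; r = -0.88 without dIEC 7 and dIEC 9). In all, 6 of the 120 Pearson correlations had an adjusted permutation p under 0.05. A relation of Gcg to Kit, the 1 gene of the mast cell list with a row (r = 0.85, adjusted p = 0.0442; rho = 0.81, adjusted p = 0.0896), came to 0.56 without WT 10 and dIEC 7 and so rested on those libraries. The other 7 genes of that list have no row, so Kit alone does not show mast cells here.

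The relation held over the libraries of both genotypes and was not a property of Gcg alone. Of 13266 genes outside the list, 67 (0.505%), Gcg included, had an r with the proliferation sum at least as high as that of Gcg. An r of at least 0.9 was found for 892 (6.72%), Gcg again included. Among the hormone genes the next was Tac1 with 0.70, and the others lay between -0.071 for Nts and 0.42 for Cck. Tac1 was related to the crypt stem genes (r = 0.84, adjusted p = 0.0464; rho = 0.88, adjusted p = 0.0453; r = 0.85 without WT 10 and dIEC 7). For Nts and Sct the r over all 10 libraries was -0.071 and 0.022, and within the 6 males it was -0.77 and -0.57, values given as a description without a test. The genotypes differed for Nts: in WT the 2 libraries with the highest proliferation sum had the lowest Nts, and in dIEC the library with the lowest sum had the lowest Nts. That difference was not tested.

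Since each CPM shares the total of its library, the ratio of Gcg to Nts counts was also compared with the ratio of proliferation to enterocyte counts, a choice made after the data were seen. Gcg made 23.4, 32.3, 18.8, 10.9 and 32.6 counts per 100 Nts counts in dIEC libraries 1, 3, 5, 7 and 9, against 57.2, 10.3, 51.3, 28.3 and 12.7 in WT libraries 2, 4, 6, 8 and 10. WT 2 and WT 6 had the highest ratios, and WT 4, dIEC 7 and WT 10 the lowest. The ratios were related with r = 0.88 (permutation p = 0.00119; rho = 0.89, p = 0.00106; n = 10), or 0.81 without WT 10 and dIEC 7. The labels do not say how many crypt and villus cells entered each sort, and its part in these values was not tested.

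**Figure D5:**
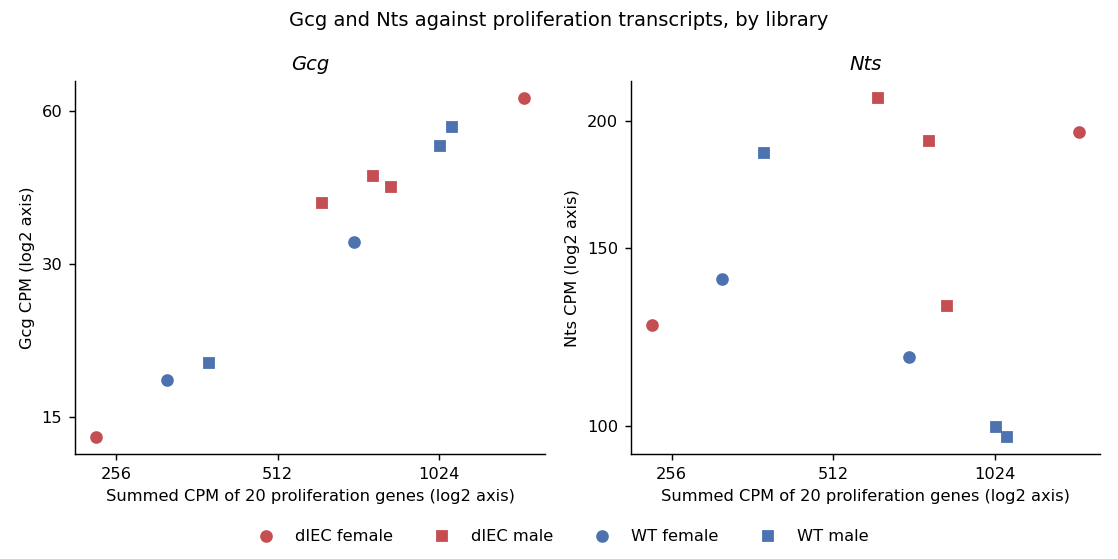
CPM of Gcg (left) and Nts (right) against the summed CPM of 20 proliferation genes in each library, both on log2 axes, red for dIEC and blue for WT, circles for females and squares for males. Gcg climbs with the sum from 13.7 CPM in dIEC 7 to 63.6 CPM in dIEC 9 (r = 0.98), and Nts has r = -0.071 over all libraries, with low values at high sums in WT and at the lowest sum in dIEC.

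The sequence before Gcg is shown because Gcg had the largest r with the proliferation genes among the 10. It is the RefSeq window of 250 bases before the start site on GRCm38.p6, chr2:62483654-62483903, on the minus strand and written in the direction of the gene. Capitals mark CAGATG, an E-box of the kind bound by dimers of the enteroendocrine factor Neurod1, and TATAAA, the TATA box letters, on either strand.
Gcg: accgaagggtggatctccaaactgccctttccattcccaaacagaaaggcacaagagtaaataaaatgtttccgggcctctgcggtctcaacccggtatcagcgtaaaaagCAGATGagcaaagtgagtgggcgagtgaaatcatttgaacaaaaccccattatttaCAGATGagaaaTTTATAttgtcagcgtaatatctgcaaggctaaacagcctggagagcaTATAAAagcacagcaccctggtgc
CAGATG was found 139 and 83 bases before the start, and TATAAA 24 bases before it, with its reverse complement TTTATA at 72 bases. Among the 10 genes, CAGATG or its reverse complement was found in 4 (Cck, Gcg, Sct and Tac1), and TATAAA in 2 (Gcg and Sct). Of all windows, 14.4% held the first and 12.4% the second. These are shares of windows, and some of the 10 genes have further windows, so they are no direct background for counts of genes. The Nts window held none of the 3 motifs searched.

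The other genes of the pathway were described by lists. Of 18 further gut hormone genes, 4 have a row in the table analysed here, and 3 of these had a positive log2 fold change, dIEC over WT, with 0 called by edgeR. Gip, the incretin of K cells, was at 99.8 ± 26.4 CPM in dIEC and 96.2 ± 44.8 CPM in WT, and Sst, the inhibitory hormone of D cells, at 51.5 ± 15.8 and 50.0 ± 23.6 CPM (SD, n = 5 each). Gip was lowest in WT 8, at 21.5 CPM. Iapp, which encodes amylin, and Nucb2, which encodes nesfatin-1, were at 3.66 ± 1.56 and 3.56 ± 1.52 CPM in dIEC and at 2.85 ± 1.89 and 3.74 ± 1.94 CPM in WT. Among the 14 with no row are Insl5, Gast, Ppy, Npy and Vip. None of 18 receptor genes for these hormones and serotonin, such as Glp1r, Sctr and Cckar, has a row; every gene of the table reaches at least 10 counts in some library, so a gene below that would have none.

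The remaining granins and granule cargo, 19 of 20 listed with a row and all tested, were positive in 19 of 19 with a median log2 fold change of 0.34, and 0 were called by edgeR. Pam, which amidates peptides such as secretin and peptide YY, was at 34.4 ± 10.2 CPM in dIEC and 31.8 ± 11.1 CPM in WT. Scg2, a further granin, was at 24.0 ± 5.15 CPM in dIEC and 18.1 ± 3.83 CPM in WT (log2 fold change 0.41, SE 0.19). Syt7, a calcium sensor of exocytosis, had a value of 0.46 (SE 0.22), and Ptprn2, a membrane protein of dense-core granules, 0.075 (SE 0.17).

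Of enteroendocrine transcription factors, 17 of 20 have a row, and 17 of 17 were positive with a median of 0.24 and 0 called by edgeR. The most abundant in CPM were Sox4 (log2 fold change 0.33, SE 0.44), Foxa1 (0.071, SE 0.18), Rfx3 (0.23, SE 0.17) and Rfx6 (0.19, SE 0.29), of which Rfx6 is required for enteroendocrine differentiation. Of 13 tested nutrient and bile acid receptors and sensors, 10 were positive with 0 called. Slc5a1, the sodium-glucose cotransporter that enterocytes also express, had -0.32 (SE 0.24), the fatty acid receptors Ffar4 and Ffar2 had -0.25 (SE 0.39) and 0.38 (SE 0.35), and Abcc8, a subunit of the KATP channel, had 0.17 (SE 0.25).

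Genes of serotonin handling did not share this sign, with 4 of 9 tested positive, a median of -0.098 and 0 called by edgeR. The 4 with the highest CPM are also expressed by enterocytes. Maoa and Maob, which break serotonin down, had log2 fold changes of -0.23 (SE 0.20) and -0.22 (SE 0.20). Ddc, which makes serotonin from the product of Tph1, had -0.24 (SE 0.17), and Slc6a4, the serotonin transporter, -0.21 (SE 0.15).

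Markers of the lineage were described in the same way. Of 11 tested enteroendocrine marker genes other than Chga and Chgb, 11 had a positive genotype value, where 52.6% of all tested genes did, and 0 were called by edgeR. All 11 are also in the granule cargo or transcription factor lists above, so their signs are not a further result. They summed to 82.8, 61.1, 79.8, 45.4 and 88.0 CPM in dIEC libraries 1, 3, 5, 7 and 9, against 69.7, 72.8, 56.9, 34.7 and 50.7 CPM in WT libraries 2, 4, 6, 8 and 10. The groups overlapped, and WT 8 was the lowest library. All 10 genes had a positive r with this sum, with a median of 0.70. Chgb had the highest (r = 0.87, permutation p adjusted over 120 relations 0.0366; rho = 0.83, adjusted p = 0.0741; r = 0.87 without WT 8 and dIEC 7). It was the 1 gene of the 10 with an adjusted permutation p under 0.05 for Pearson's r. Without WT 8 and dIEC 7 the median r fell to 0.51, with 0.036 for Pyy and -0.032 for Cck. Proliferation genes were positive between genotypes in 15 of 20 and tuft cell genes in 0 of 10, and their part in the genotype values was not tested.

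The mean of the 10 genes was compared with 12240 genes with a mean of at least 1 CPM, a number that includes the 10. Outside the 10, those most like it over the 10 libraries, by Pearson's r of log2 CPM, were Prnp (0.95), Cplx2 (0.94), Grik5 (0.92), Zfp346 (0.92), Etaa1 (0.92), Pcsk1 (0.91), Trim35 (0.91) and Cpe (0.90). Of these, Pcsk1 is the prohormone convertase that cuts proglucagon to GLP-1, Cpe is the carboxypeptidase that trims the products, and Cplx2 is a complexin of regulated exocytosis. Gene by gene, the nearest was Neil3 for Gcg (0.99), Pcsk1 for Chgb (0.95), Hbb-bt for Chga (0.95), Baz1b for Tac1 (0.94), Kcnb2 for Sct (0.94) and Gm24029 for Tph1 (0.93). For Ghrl, Cck, Pyy and Nts it was Rgmb (0.91), Mitd1 (0.90), Dennd4b (0.88) and Trim33 (0.88). Each is the highest value over 10 libraries among the 12240 genes less the 10, and is a description.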

How the data were processed

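RNA of sorted ileal epithelial cells was sequenced from 10 mice. The authors deposited raw counts per gene, and the submitters' processing notes name Novoalign and mm10. Which program counted the reads, with which annotation and whether by strand, is not stated in the labels. No column of the table belongs to any other sample. The 10 genes and all lists were chosen with earlier results of these data known.

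Genes were identified by Ensembl ID, and 13729 (98.5%) matched GENCODE M21 on GRCm38, the assembly called mm10, which gave coordinates and lengths. Counts were filtered with filterByExpr on genotype by sex, scaled by TMM, and tested with edgeR 4.0.16 (glmQLFit, robust, and glmQLFTest) in R 4.3.3, with sex and genotype in the model, over all 10 libraries. Values of p were adjusted over 13286 genes by the Benjamini-Hochberg method, and a gene was called at an adjusted p under 0.05. The SE of a log2 fold change is its size over the square root of F. CPM use the TMM-scaled total of each library. Correlations used log2 CPM with a prior count of 2 (for list sums, log2 of CPM plus 1) and 100000 two-sided permutations. The scripts were tested on simulated data. Alternatives were DESeq2 1.42.0, limma 3.58.1 voom with sample weights, other scaling, filters and covariates, each sex or genotype alone, and each library left out. Those on the relation of Gcg to proliferation genes were added after the data were seen.

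Named genes are the 10, H2-Ab1, the 4 genes of each pathway list with the highest mean CPM, and the genes of highest r; genes given for having no row are examples. Pairs of libraries of 1 group had a chi-square per degree of freedom of 17.0 to 163, and each was kept as a sample of its own. Each library is 1 mouse, and p-values measure the spread between mice. Depth was 9174101 to 13484363 counts a library; the spread between mice holds counting error and more.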

Additional observations from a re-analysis of the deposited data

Results flagged for a closer look

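Single libraries stood apart from the rest of their group in 10 of 68 groups of libraries examined, where the rule used flags about 1 in 20 by chance, 3.4 here. The groups overlap in their libraries, and shares of 1 pool are tied to each other. WT 2, a male, gave 7 of the 10 flags through 3 genes. Its Ghrl level, 21.4 CPM, lay apart from the other WT libraries (6.36 to 10.6 CPM), as did its Tac1 level, 7.11 CPM (1.53 to 2.89 CPM in the others). Its share of Cck in the hormone CPM per kb was 8.15%, apart from the other WT libraries (2.83% to 3.62%) and from the other males. Its share of Ghrl was 7.11%, apart from both the other WT libraries (2.71% to 3.18%) and the other males, and its share of Tac1, 0.749%, was apart from the other WT libraries (0.146% to 0.292%).

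The remaining flags were of 1 gene each. Among the 4 females, Tac1 was highest in dIEC 9 at 8.25 CPM, against 1.53 to 2.30 CPM in the other females. Among the same females the Pyy share was highest in WT 10 at 17.6%, against 13.7% to 14.4% in the other females. Among dIEC libraries the Nts share was lowest in the male dIEC 3 at 31.9%, against 38.6% to 40.8% in the other dIEC libraries.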

How the results depend on the processing

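No alternative called any of the 10 genes in any comparison. Signs of the small genotype values did change. With males only they were -0.055 for Chga, -0.079 for Chgb, -0.018 for Gcg, -0.038 for Ghrl, -0.016 for Tac1 and -0.17 for Tph1, and with both dIEC females left out -0.051 for Chga, -0.069 for Chgb, -0.022 for Ghrl and -0.16 for Tph1. limma voom gave -0.20 for Gcg, -0.00066 for Tac1 and -0.29 for Tph1, and females only gave 0.30 for Cck. Without 1 library, Gcg ran from -0.25 to 0.43 and Cck from -0.42 to 0.12.

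The sex values turned positive within dIEC for Chga (0.22), Chgb (0.17), Tac1 (0.33) and Tph1 (0.16), and for Nts within WT (0.0079), in limma voom (0.11) and without 1 library (range -0.18 to 0.093). The interaction value became -0.18 for Gcg with the proliferation score in the model, and for Sct 0.025 with that score and 0.13 with library size only. Without 1 library it ran from -0.90 to 1.36 for Gcg, -0.62 to 0.19 for Pyy, -0.53 to 0.16 for Nts and -0.37 to 0.51 for Sct. The causes were not tested.

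Of all tested genes, the count called by genotype was 0 with females only. The count by sex was 9 in DESeq2 and 278 with the proliferation score in the model. The count for the interaction was 0 with library size only, 17 in DESeq2, 0 in limma voom, 13 with the proliferation score, and 0 to 1 without 1 library. The r of Gcg with the proliferation genes was 0.99 with library size only and 0.97 to 0.99 without 1 library.

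No paired analysis was made, as the genotypes share no replicate numbers to pair by. Unshared numbers do not show whether mice were collected in pairs. The design has 2 females a genotype, Tac1 and Tph1 rest on few counts, and depth adds counting error to both.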
